A study of Mus musculus with 89 samples.

Results

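The effect of allergen challenge was measured in lungs that also received CuO PEG, a CuO nanomaterial coated with polyethylene glycol, at its highest dose of 40 μg/day. Of the 89 samples of the series, 6 carried the labels CuO PEG and dose 40, and these comprised 3 challenged with ovalbumin (OVA) and 3 challenged with phosphate-buffered saline (PBS). All mice were female BALB/c, 6 to 8 weeks old, and all had been sensitized with OVA/Alum, so the PBS group represents sensitized animals that did not meet the allergen again in the airways. Both groups were given the material by oropharyngeal aspiration on 4 consecutive days, and lung tissue was taken 24 h after the last of them. Every hybridised sample combined 2 RNA samples in a pool of its own, and the tissue was part of the left lobe after bronchoalveolar lavage, which removes loose airway cells before RNA is isolated. p-values therefore measure the spread between such pools within groups, estimated over all 89 samples and not from the 6 alone.

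In sensitized BALB/c mice, inhaled OVA elicits a type 2 immune response in which T helper 2 cells release interleukins 4, 5 and 13. These cytokines drive eosinophils into the lung through eotaxins, turn airway epithelium towards mucus-producing goblet cells and shift macrophages to the alternatively activated state, which is marked by arginase and chitinase-like proteins. Interferons, in contrast, act through STAT transcription factors on a separate group of genes best known for antiviral defence.

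Challenge with OVA changed 668 of 22911 genes in the CuO PEG lungs (2.92%), where a change means a limma Benjamini-Hochberg adjusted p below 0.05 and a fold change above 1.5, that is 0.58 on the log2 scale. Of these, 553 were higher (2.41% of all genes) and 115 were lower (0.502%) after OVA. The median log2 fold change over all genes was -0.01, and the median standard error of a gene was 0.12. Type 2 genes led the rises, with goblet cell, alternatively activated macrophage and eosinophil genes among them, and a group of interferon-induced genes rose with them. Hemoglobin and other red cell transcripts led the falls. Gm15056, in none of the lists, had the second-largest rise, from 7.08, 6.56 and 7.12 in PBS to 12.45, 10.94 and 12.36 in OVA samples (4.99 ± 0.51, adjusted p = 2.23e-09), and passed under each alternative tried. With a separate term for every array, which spends most of the degrees of freedom, 213 genes passed, while all 553 and all 115 genes kept their direction with medians of 0.98 and -0.78 against 0.85 and -0.67.

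One sample stood apart. OVA replicate 2 was the OVA sample nearest to the PBS group in 453 of the 553 genes that rose and in 108 of the 115 that fell. Its shift from the PBS mean was a median 64.8% of the shift of the other OVA samples for genes that rose and 54.8% for genes that fell. Without this sample 1042 genes changed, 765 higher and 277 lower, and they included 649 of the 668. Leaving out OVA replicate 1 gave 384 genes, leaving out OVA replicate 3 gave 385 and leaving out PBS replicate 2 gave 419. The 6 samples had median foreground signals of 67 to 86, and 53.6% to 63.5% of their spots were well above background. Surfactant protein C (Sftpc), at log2 levels of 17.40 to 18.04, and the club cell secretoglobin Scgb1a1, at 17.01 to 17.61, were high in all 6.

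**Figure D1:**
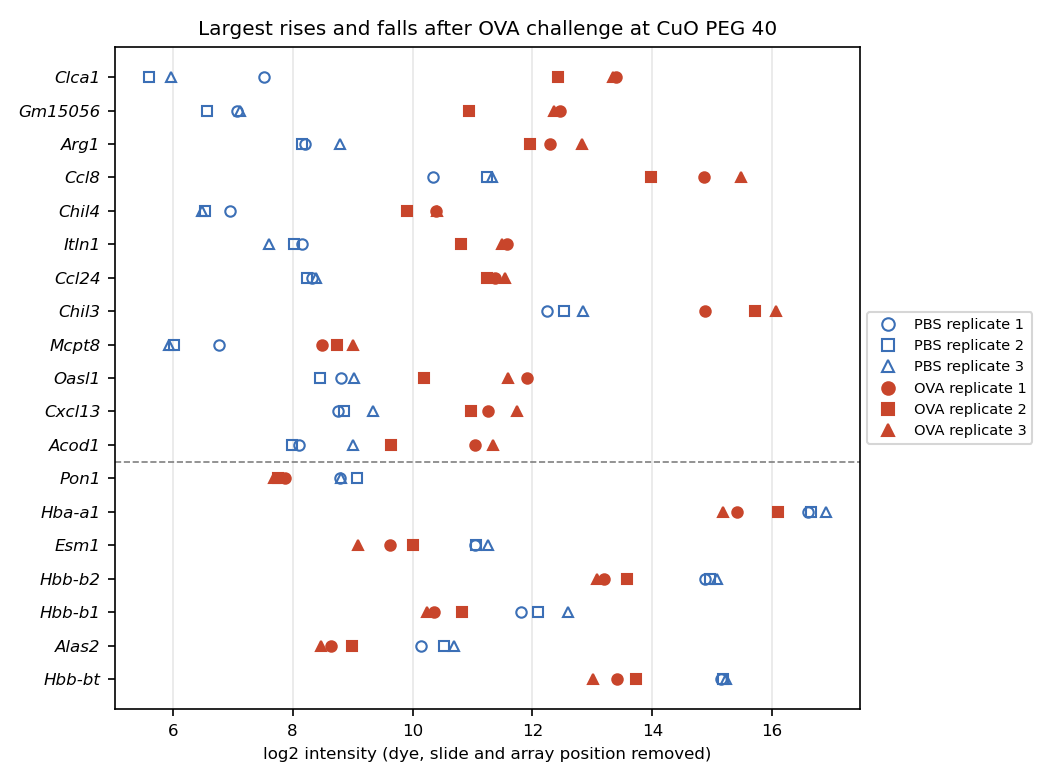
Log2 intensity, with dye, slide and array position removed, of the 12 genes that rose most and 7 of the 8 that fell most after OVA challenge among those whose groups did not overlap (3 PBS samples in blue, 3 OVA samples in red, 1 marker shape per replicate). Clca1 spans 5.61 to 7.51 in PBS and 12.42 to 13.39 in OVA samples, and the falls are led by hemoglobin genes.

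The largest rise was that of Clca1, a secreted goblet cell protein of the mucus layer. Its log2 levels were 7.51, 5.61 and 5.97 in PBS replicates 1 to 3 and 13.39, 12.42 and 13.34 in OVA replicates 1 to 3. All OVA samples were far above all PBS samples, by 6.69 ± 1.02 (SE; adjusted p = 1.02e-05), although it was well above background in only 2 of the 3 PBS samples, and by 7.05 without OVA replicate 2. Muc5ac, the gel-forming mucin of goblet cells, was measured at 7.23, 6.84 and 6.82 in PBS and at 8.51, 8.21 and 9.35 in OVA samples. The groups did not overlap, and Muc5ac rose by 1.72 ± 0.50 (adjusted p = 0.0216). Of 12 measured goblet cell and mucus genes, 5 rose and none fell, with a list median of 1.32 against -0.01 over all genes. The others that rose were Itln1, an intelectin that binds microbial sugars (3.36), Agr2, which folds mucins in the endoplasmic reticulum (2.05), and Bpifb1, a secreted airway protein (1.48). The second mucin, Muc5b, was 1.18 higher with an adjusted p of 0.0603, and the goblet cell transcription factor Spdef was 0.71 higher with the same adjusted p. With OVA replicate 2 left out, 9 of the 12 rose, Muc5b (1.53, adjusted p = 0.014) included. Without OVA replicate 1, PBS replicate 2 or PBS replicate 3, 3 of the 12 rose, and without OVA replicate 3, 2 did.

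Genes of alternatively activated macrophages and chitinase-like proteins rose in 9 of 12 cases, with a median of 1.53. Arg1, the arginase that competes for arginine with nitric oxide synthase, was at log2 levels of 8.21, 8.16 and 8.79 in PBS and 12.29, 11.96 and 12.83 in OVA samples. Every OVA sample exceeded every PBS sample, and Arg1 rose by 3.97 ± 0.53 (adjusted p = 8.12e-07), 15.7-fold. Chil4 (3.58 ± 0.38), Chil3 (3.01 ± 0.48) and the acidic chitinase Chia1 (1.62 ± 0.31) also rose, as did Retnlb, a resistin-like protein (2.24), Pdcd1lg2, the inhibitory ligand PD-L2 (1.96), and Mrc1, the mannose receptor (1.33). Retnla, the resistin-like protein of these macrophages, was measured at 14.59, 15.81 and 15.40 in PBS and 16.44, 16.22 and 17.44 in OVA samples. These groups did not overlap, but the difference of 1.43 missed the threshold (adjusted p = 0.0514). Between 8 and 10 of the 12 genes rose whichever of the 6 samples was left out.

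The letters of the STAT6 site, TTC and GAA with 4 bases of any kind between them on either strand, occur in the 250 bases before the start of 2 of the 8 genes of this list that have a RefSeq promoter window (25.0%), against 1169 of 18077 array genes with a window (6.47%). Among all genes with a window, they occur in 38 of 439 that rose (8.66%) and 5 of 82 that fell (6.1%). In the other type 2 lists they occur in 0 of 9 eosinophil, 0 of 6 goblet cell and 1 of 7 Th2 homing genes. Of the 2 genes in the macrophage list, Pdcd1lg2 rose and Retnla missed the threshold. A match is a description of the sequence and not evidence of binding. The windows of these 2 genes are given as 100 bases, 5′ to 3′ on the strand of the gene, in build GRCm38.p6, with the match in capitals. The window of Retnla is chr16:48842419-48842518 on the plus strand and that of Pdcd1lg2 is chr19:29410792-29410891 on the plus strand.
Retnla: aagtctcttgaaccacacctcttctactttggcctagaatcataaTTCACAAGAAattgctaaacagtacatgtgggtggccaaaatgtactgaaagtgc
Pdcd1lg2: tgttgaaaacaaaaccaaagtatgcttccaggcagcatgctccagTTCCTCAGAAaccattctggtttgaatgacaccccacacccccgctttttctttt

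Eotaxins and eosinophil genes rose in 10 of 13 cases, with a median of 1.26. Ccl24, eotaxin-2, was at 8.32, 8.24 and 8.40 in PBS and 11.37, 11.24 and 11.54 in OVA samples. It rose by 3.07 ± 0.40 (adjusted p = 6.35e-07), with the samples of each group close together. Ccl11, eotaxin-1, rose by 1.78 ± 0.30 (adjusted p = 5.51e-05), from 7.60 to 7.86 in PBS to 9.33 to 9.66 in OVA samples. Among granule proteins, Rnase2a rose by 2.28 and Prg2, the major basic protein, by 2.08. Epx, the eosinophil peroxidase, was not well above background in any PBS sample (mean 5.76) and averaged 7.02 in OVA samples, at least 1.69-fold higher (adjusted p = 0.00552). Siglecf, a surface lectin of eosinophils and alveolar macrophages, rose by 0.85, and the eotaxin receptor Ccr3 was 0.66 higher (adjusted p = 0.124). The ribonucleases Ear1 and Ear2 no longer passed without OVA replicate 2, in which they were highest, and 8 of the 13 then rose. Their probes can share signal with near-identical family members. Without PBS replicate 1 or PBS replicate 2, or with a separate term for every array, 7 of the 13 rose. Whether more eosinophils or more RNA per cell gave these values cannot be told apart in bulk tissue.

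Of the cytokines at the head of this response, Il4 was at 6.33, 6.30 and 6.49 in PBS and at 7.35, 7.38 and 7.39 in OVA samples, and rose by 1.00 ± 0.26 (adjusted p = 0.00937), 2.00-fold. It was the 1 gene to pass of 18 cytokines, alarmins and receptors, the median of which was 0.17. Il4 did not pass without PBS replicate 2 (adjusted p = 0.0787) or OVA replicate 1 (0.0556), nor with a separate term for every array (0.264). Il5 differed by 0.47 (adjusted p = 0.0737) and Il13 by 0.26 (adjusted p = 0.332), and neither was well above background in more than 1 of the 6 samples. Of 7 chemokines and receptors of Th2 cell homing, Ccl8, the ligand of CCR8, rose by 3.80 ± 0.57 and Ccl1, the other CCR8 ligand, by 0.81. Ccl17, a CCR4 ligand, was at 10.75, 10.97 and 10.71 in PBS and at 10.84, 11.50 and 10.68 in OVA samples. These overlap, and the fold change was 0.19 (adjusted p = 0.775).

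In the interferon response list 10 of 12 measured genes rose, with a median of 1.66. Irf7, the transcription factor that amplifies interferon production, was at 10.18, 10.13 and 10.23 in PBS and at 13.12, 11.07 and 12.82 in OVA samples. The PBS samples lay close together, all OVA samples were above them, and OVA replicate 2 was the lowest of these. Irf7 rose by 2.16 ± 0.46 (adjusted p = 0.00124), 4.46-fold, and by 2.87 without OVA replicate 2. Isg15, a ubiquitin-like protein, was at 11.99, 11.84 and 12.03 in PBS and at 14.69, 13.00 and 14.24 in OVA samples and rose by 2.02 ± 0.40. Rsad2, which encodes viperin, was at 6.87, 6.76 and 7.19 in PBS and at 9.62, 7.92 and 9.41 in OVA samples and rose by 2.04 ± 0.40. In each of these genes OVA replicate 2 moved in the same direction by a smaller step. The chemokines Cxcl10 (2.29) and Cxcl9 (1.56), which attract T cells through CXCR3, rose as well, as did Oas1a (1.86), Ifit1 (1.66), Usp18 (1.65) and Ifit3 (1.10). Oasl1, a related gene outside the list, rose by 2.47. Interferon gamma itself (Ifng) was 0.35 higher (adjusted p = 0.384), with overlapping groups.

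Without OVA replicate 2, 10 of the 12 again rose and the list median was 2.16. Without OVA replicate 1 a single gene of the 12 passed (median 1.25), without OVA replicate 3 8 did, and without PBS replicate 2 7 did. In a fit with a separate term for every array none of the 12 passed, although the median was 1.78. The controls without material showed a median of 1.11 for the same list, with 9 of 12 higher after OVA, and no gene of the list had an OVA effect that differed from theirs. At the same dose of 40 the list median was 2.15 with CuO COOH, 0.85 with CuO and 0.49 with CuO NH3.

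**Figure D2:**
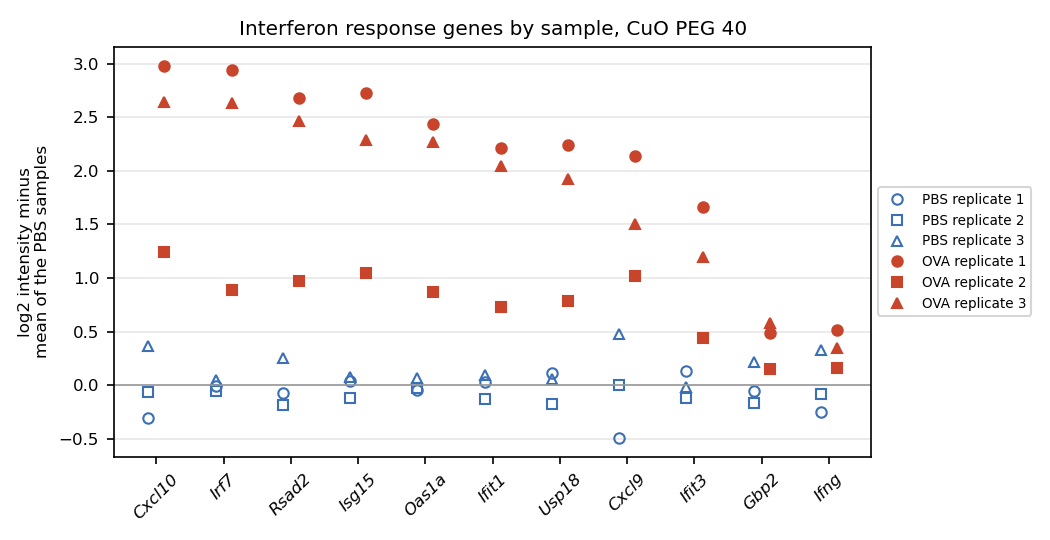
Log2 intensity minus the mean of the 3 PBS samples for 11 interferon response genes in the 6 CuO PEG 40 samples (PBS in blue, OVA in red, 1 marker shape per replicate). OVA replicate 2 lies between the PBS samples and the other OVA samples for genes such as Irf7 and Isg15.

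The letters of the interferon-stimulated response element, GAAA and again GAAA with 2 bases of any kind between them on either strand, were searched in the 250 bases before each RefSeq start. They were present in 57 of the 439 genes that rose and have a window (13.0%), in 622 of 18077 array genes with a window (3.44%) and in 1 of 82 genes that fell (1.22%). Of the interferon list, 7 of 10 genes with a window hold them. OVA replicate 2 was the lowest OVA sample in 53 of the 57 genes that rose and hold the letters, and its shift there was a median 44.1% of that of the other OVA samples. In the 382 genes that rose without the letters, the corresponding values were 305 genes and 66.2%. The windows of 4 list members that rose and hold the letters are shown. Each is 100 bases in build GRCm38.p6, 5′ to 3′ on the strand of the gene, with all matches in capitals. They lie at chr4:156200830-156200929 (Isg15, minus strand, 3 overlapping matches), chr12:26456518-26456617 (Rsad2, minus strand), chr5:92349040-92349139 (Cxcl10, minus strand) and chr19:34583362-34583461 (Ifit3, plus strand, 2 matches).
Isg15: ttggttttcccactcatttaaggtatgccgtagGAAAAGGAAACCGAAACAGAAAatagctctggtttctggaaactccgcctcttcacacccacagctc
Rsad2: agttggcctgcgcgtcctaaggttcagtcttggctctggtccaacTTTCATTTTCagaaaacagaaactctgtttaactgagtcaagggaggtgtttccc
Cxcl10: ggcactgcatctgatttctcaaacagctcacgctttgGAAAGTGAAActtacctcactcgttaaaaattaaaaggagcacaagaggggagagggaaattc
Ifit3: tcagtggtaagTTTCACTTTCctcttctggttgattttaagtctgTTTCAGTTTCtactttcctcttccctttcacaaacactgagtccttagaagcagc

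Other immune cell genes moved less. Of 13 mast cell and basophil genes 3 rose, namely Mcpt8, the basophil protease (2.50 ± 0.40), the mast cell carboxypeptidase Cpa3 (0.94) and Mcpt1. Mcpt1, a mucosal mast cell protease, was not well above background in any PBS sample (mean 5.97) and averaged 7.23 in OVA samples, at least 2.02-fold higher (adjusted p = 0.00956). When OVA replicate 2 was left out, 6 of the 13 rose. Without OVA replicate 1 or OVA replicate 3, 2 did, and with a separate term for every array none did. In that last fit Mcpt8 was 1.64 higher (limma adjusted p = 0.200). Of 16 T cell genes 4 rose, all of them receptors linked to activation (Il2ra 1.10, Icos 0.80, Il2rb 0.62 and Ctla4, measured in 2 of 3 OVA and no PBS samples and at least 1.36-fold higher), whereas the lineage genes Cd3d (0.16) and Cd3e (0.07) did not pass. Without OVA replicate 1 a single T cell gene passed, and without OVA replicate 3, PBS replicate 1 or PBS replicate 2 2 did. None of 15 B cell and plasma cell genes changed, and their median was 0.12. Cxcl13, which draws B cells into lymphoid follicles, rose by 2.34, and Itgax, the integrin CD11c, by 0.75, as the members of the 14-gene dendritic cell and lymphoid homing list that changed. Of 11 genes of the monocyte axis 3 rose, among them Ccl12 (1.86), a CCR2 ligand, and Ccr2 itself (0.77). Acod1, which makes itaconate in activated macrophages, rose by 2.31 outside the lists, but not without PBS replicate 2, OVA replicate 1 or OVA replicate 3 (adjusted p = 0.0915, 0.0860 and 0.0912) or with array terms (0.306).

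Neutrophil genes were higher in the OVA samples as a group, although few passed singly. The mean log2 level of the 13 genes was 9.53, 9.44 and 9.53 in PBS and 10.19, 10.07 and 10.31 in OVA samples, and 11 of the 13 genes were higher in all 3 OVA than in all 3 PBS samples, where 14.4% of all genes were. Their median was 0.71, against 0.06 in the controls without material. The same median was 0.16 with CuO PEG at 2.5 and 0.92 at 10. At 40 it was -0.02 with CuO, 0.31 with CuO COOH and 0.05 with CuO NH3. The neutrophil genes that rose with CuO PEG 40 were Retnlg, a resistin-like protein (1.47), and the metalloproteinases Mmp8 (1.25) and Mmp9 (0.79). The calprotectin genes S100a8 (0.86, adjusted p = 0.106) and S100a9 (0.63, adjusted p = 0.298) did not pass. None of the 13 had an OVA effect that differed from that of the controls. Leaving out OVA replicate 3 left 1 of the 13 above the threshold, and leaving out any of the PBS samples or OVA replicate 1 left 2. With a separate term for every array 1 of the 13 passed and the median was 0.46.

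Of 9 neutrophil chemokines and growth factors none rose and 1 fell. Csf2, which encodes GM-CSF, the growth factor of granulocytes and alveolar macrophages, was at 8.58, 8.92 and 8.76 in PBS and at 7.78, 7.71 and 7.78 in OVA samples. All OVA samples were below all PBS samples, and Csf2 fell by 1.00 ± 0.16 (adjusted p = 3.37e-05). The neutrophil chemoattractant Cxcl1 was at 10.27 to 10.54 in PBS and at 10.24 to 10.32 in OVA samples, a difference of -0.13 (adjusted p = 0.922). Of the 16 pro-inflammatory cytokines and feedback genes, Il1rn, the interleukin 1 receptor antagonist (1.17), and Il6 (1.01) rose. A single gene of these 16 rose without PBS replicate 1, PBS replicate 2, OVA replicate 1 or OVA replicate 3. Without OVA replicate 2, 3 rose, and with a separate term for every array none did. Of 16 acute phase genes complement C3 rose (0.92), and of 19 matrix genes Adam8 (1.28) and the collagenase Mmp13 (0.97) rose.

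Of 18 genes of copper handling and oxidative stress 2 rose. The metallothioneins Mt1 and Mt2 bind copper and zinc. Mt1 was at 10.65, 10.29 and 10.47 in PBS and at 11.31, 11.28 and 11.65 in OVA samples, and rose by 0.95 ± 0.21 (adjusted p = 0.00189). Mt2 rose by 1.17 ± 0.31 (adjusted p = 0.0109). Both groups had received the same dose of the material. The OVA effect on Mt1 was 0.60 in controls, 0.18 with CuO, -0.15 with CuO COOH and -0.16 with CuO NH3 at the same dose. Without PBS replicate 2 neither gene passed.

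The falls were led by red cell transcripts. Hbb-bt, an adult beta globin, was at log2 levels of 15.14, 15.19 and 15.24 in PBS and 13.41, 13.73 and 13.01 in OVA samples. The PBS samples lay close together and all OVA samples were lower, by 1.80 ± 0.29 (adjusted p = 2.71e-05), 3.49-fold. Alas2, the first enzyme of heme synthesis in red cells, fell from 10.14, 10.53 and 10.69 to 8.63, 8.99 and 8.47, a decrease of 1.76 ± 0.29 (adjusted p = 3.93e-05). Hbb-b1 fell by 1.70, Hbb-b2 by 1.69 and Hba-a1 by 1.16, whereas Hba-a2, picked out after its value had been seen, differed by -0.65 (adjusted p = 0.278). Globin paralogs can share probe signal, so these are not independent measurements. Of the 6 measured erythrocyte list genes 3 fell with and without OVA replicate 2, 2 fell without OVA replicate 1 or 3, and Epb42, which encodes a protein of the red cell membrane, was not well above background in any of the 6 samples. The mean level of the list was 9.36 to 9.76 in PBS and 8.49 to 8.84 in OVA samples, and it was 9.91 to 10.4 in PBS controls and 9.54 to 10.1 in OVA controls. The OVA effect on Hbb-bt was -0.27 in controls, -0.20 with CuO PEG at the dose of 2.5 and -1.13 at the dose of 10. With a separate term for every array, Hbb-bt was lower by a similar step (-1.92, adjusted p = 0.0743) but none of the list passed. The amount of blood left in each tissue piece was not given in the sources used here, and its part in these values was not tested.

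Genes of resident lung cells passed singly in few cases. All 3 OVA samples were below all 3 PBS samples in 6 of 9 club cell, 6 of 7 type 1 alveolar, 6 of 9 type 2 alveolar and 5 of 10 endothelial genes, where 16.8% of all genes were. The medians were -0.55, -0.50, -0.33 and -0.36, and those in controls without material were -0.70, -0.63, -0.24 and -0.47. Of 9 club cell genes the cytochromes Cyp2f2 and Cyp4b1, which oxidize inhaled chemicals, fell by 0.94 and 0.84. The largest value of that list went the other way, at 1.66, and did not pass. In the endothelial list of 10 the angiopoietin receptor Tek fell by 0.73, and in the 7 type 1 alveolar genes Akap5 fell by 0.63. Outside the lists, Esm1, a proteoglycan of endothelial cells, fell by 1.54 ± 0.29, and Pon1, a paraoxonase, fell by 1.11 ± 0.27. No gene passed in the type 2 alveolar, ciliated (7 genes, median -0.02) or circadian clock (12 genes, median -0.18) lists. Of 12 alveolar macrophage genes Atp6v0d2 (0.93), a proton pump subunit, Abcg1 (0.75), a cholesterol exporter, and Pparg (0.64), the transcription factor these cells depend on, rose. Without PBS replicate 2 a single alveolar macrophage gene rose. With OVA replicate 2 left out, 3 type 1, 4 club and 3 endothelial genes fell and 1 club cell gene rose. With any other sample than PBS replicate 3 left out, 1 club cell gene fell. With a separate term for every array no type 1, club or endothelial gene passed. Tek did not pass without PBS replicate 1, PBS replicate 2, OVA replicate 1 or OVA replicate 3, nor Akap5 without PBS replicate 2, OVA replicate 1 or OVA replicate 3.

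**Figure D3:**
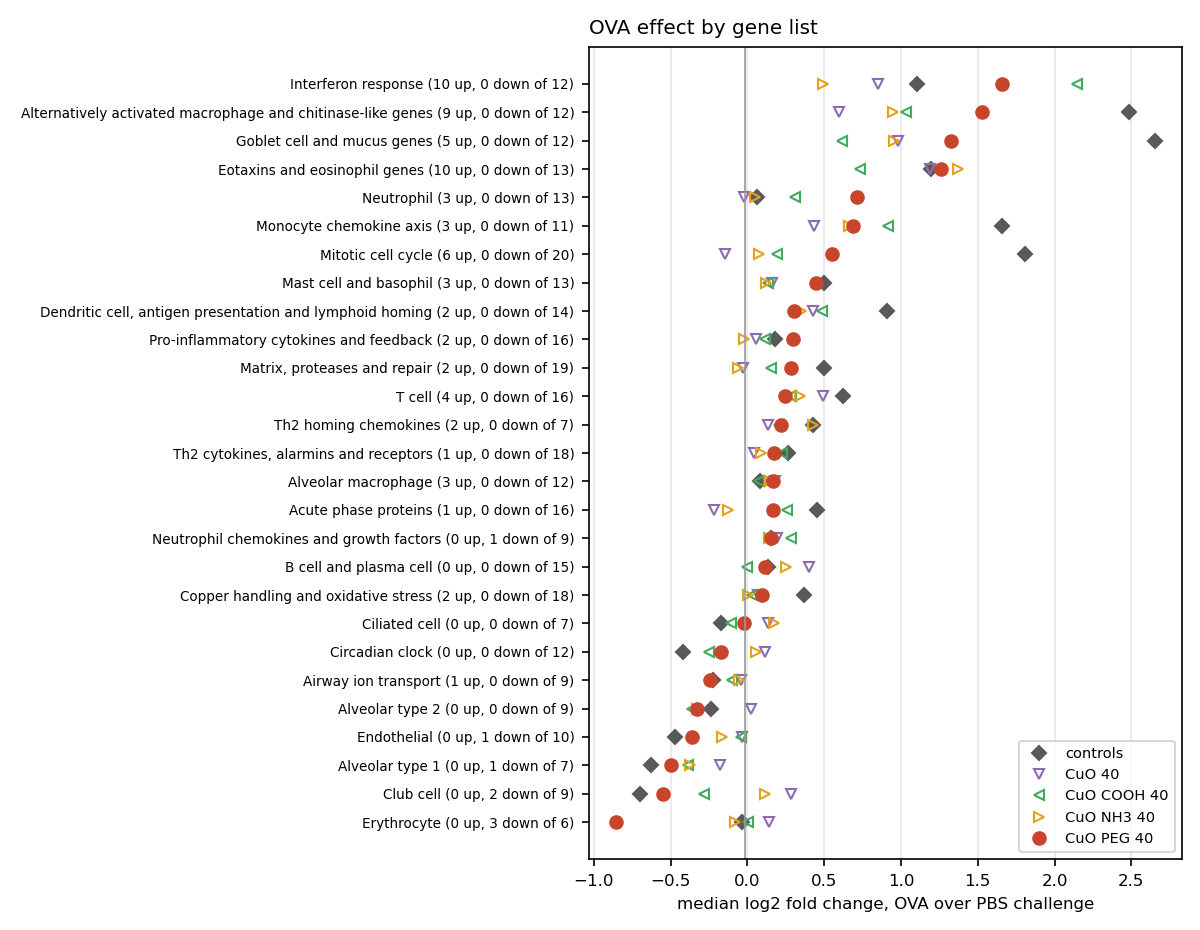
Median log2 fold change of OVA over PBS challenge for each gene list at CuO PEG 40, in controls without material, and with the other materials at 40, beside the number of list genes that rose and fell at CuO PEG 40. The grey line marks the median of all genes at CuO PEG 40 (-0.01), and the mitotic list stands at 0.55 with CuO PEG 40 and at 1.81 in controls.

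The same contrast in sensitized mice without material, with 8 OVA and 7 PBS controls, changed 1491 genes (6.51%), 1042 higher (4.55%) and 449 lower (1.96%). The groups share no samples with the CuO PEG 40 groups. Of the genes that rose with CuO PEG 40, 424 also rose in controls, which is 76.7% of the former and 40.7% of the latter. Of those that fell, 89 fell in both, which is 77.4% and 19.8%. No gene changed in opposite directions. The number called also depends on the number of samples, so the test of the difference between the effects is given next.

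The OVA effect with CuO PEG 40 differed from that in controls for 248 genes (1.08%), lower for 227 (0.991%) and higher for 21 (0.0917%). Of the 227, 223 had a positive log2 fold change after OVA in controls, whether or not it passed the thresholds. The median over the 227 was 1.37 in controls and 0.46 with CuO PEG 40. The group levels of these genes are given as a description, since the contrast that selected the genes is built from the same levels. In 203 of the 227 genes all 3 PBS samples with CuO PEG 40 were above all 7 PBS controls, by a median of 0.99 in the group means, while the OVA group means differed by a median of 0.11. In 30 of the 227, all OVA samples with CuO PEG 40 were below all OVA controls. The shares of all genes with such separations from controls were not counted. The split between lower and higher moved with single samples, being 148 and 70 of 218 without OVA replicate 2 and 114 and 3 of 117 without PBS replicate 2.

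Slc26a4, the anion exchanger pendrin of inflamed airway epithelium, had the largest gap. Its levels were 11.62, 11.90 and 11.60 in PBS and 13.22, 13.11 and 13.43 in OVA samples with CuO PEG 40, and averaged 8.53 in PBS and 13.30 in OVA controls. The OVA levels overlapped, and the mean PBS level was 11.71 with the material against 8.53 without. The OVA effect was 1.55 ± 0.40 with CuO PEG 40 and 4.77 in controls, a difference of -3.22 ± 0.48 (adjusted p = 2.41e-05). Timp1, an inhibitor of matrix proteases, followed the same course, with means of 9.74 and 13.92 in PBS and OVA controls and an OVA effect of 1.13 with CuO PEG 40, a difference of -3.05 (adjusted p = 0.00011). Fxyd4, a regulator of the sodium pump, differed by -2.84, the chemokine Cxcl5 by -2.75, Ccl17 by -2.10 and the alarmin Il33 by -1.20.

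Mitotic cell cycle genes belonged to this group in full. All 20 had a smaller OVA effect with CuO PEG 40 than in controls. In controls all 20 rose, with a median of 1.81, and with CuO PEG 40 6 rose, with a median of 0.55. Mki67, the proliferation antigen, was at 10.85, 11.08 and 11.11 in PBS and 11.67, 11.40 and 11.67 in OVA samples, against a range of 8.73 to 9.62 in PBS controls and of 10.93 to 11.76 in OVA controls. The PBS samples with CuO PEG 40 were already near the OVA controls. The OVA effect was 0.57 (adjusted p = 0.0512), and it differed from that of controls by -1.75 ± 0.22 (adjusted p = 4.24e-06). The mean level of the list was 7.14 to 7.72 in PBS controls, 8.80 to 8.90 in PBS and 9.09 to 9.55 in OVA samples with CuO PEG 40, and 8.83 to 9.51 in OVA controls. Its median effect was -0.15 with CuO, 0.19 with CuO COOH and 0.07 with CuO NH3 at 40, and 1.59 and 1.56 with CuO PEG at 2.5 and 10. Without OVA replicate 2, 16 of the 20 rose with CuO PEG 40. Without OVA replicate 1, OVA replicate 3 or PBS replicate 2 none did, without PBS replicate 1 2 did and without PBS replicate 3 4 did. A single one rose with a separate term for every array or on the CuO PEG slides alone, and 13 rose when arrays were a random block.

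Goblet cell genes differed on the other side. The mean level of the 12 genes was 7.86 to 8.10 in PBS samples with CuO PEG 40 and 7.57 to 8.25 in PBS controls, but 9.20 to 10.1 in OVA samples with CuO PEG 40 and 10.6 to 11.3 in OVA controls. Muc5ac averaged 10.68 in OVA controls and did not exceed 9.35 with CuO PEG 40, and its OVA effect was 4.07 in controls, a difference of -2.35 ± 0.59 (adjusted p = 0.0231). Agr2 (-2.25), Fcgbp, a mucus-binding protein (-2.34), and Spdef (-1.34) completed the 4 of 12 with a smaller effect. With a separate term for every array these differences did not pass and were -0.24 for Muc5ac, -1.08 for Agr2 and -0.70 for Fcgbp, and the list median with CuO PEG 40 was 2.03 rather than 1.32 (1.99 after ComBat). The difference for Clca1 was -2.06, with a 95% interval from -4.49 to 0.37. For eosinophil genes the median effects were 1.26 with CuO PEG 40 and 1.20 in controls, and the 1 gene of 13 whose effects differed was Siglecf, with an effect of 0.08 in controls. The mean level of that list was lower with CuO PEG 40 under both challenges. It was 7.76 to 7.88 against 8.05 to 8.44 in PBS controls, and 9.07 to 9.23 against 9.38 to 10.1 in OVA controls. These level differences were not tested.

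**Figure D4:**
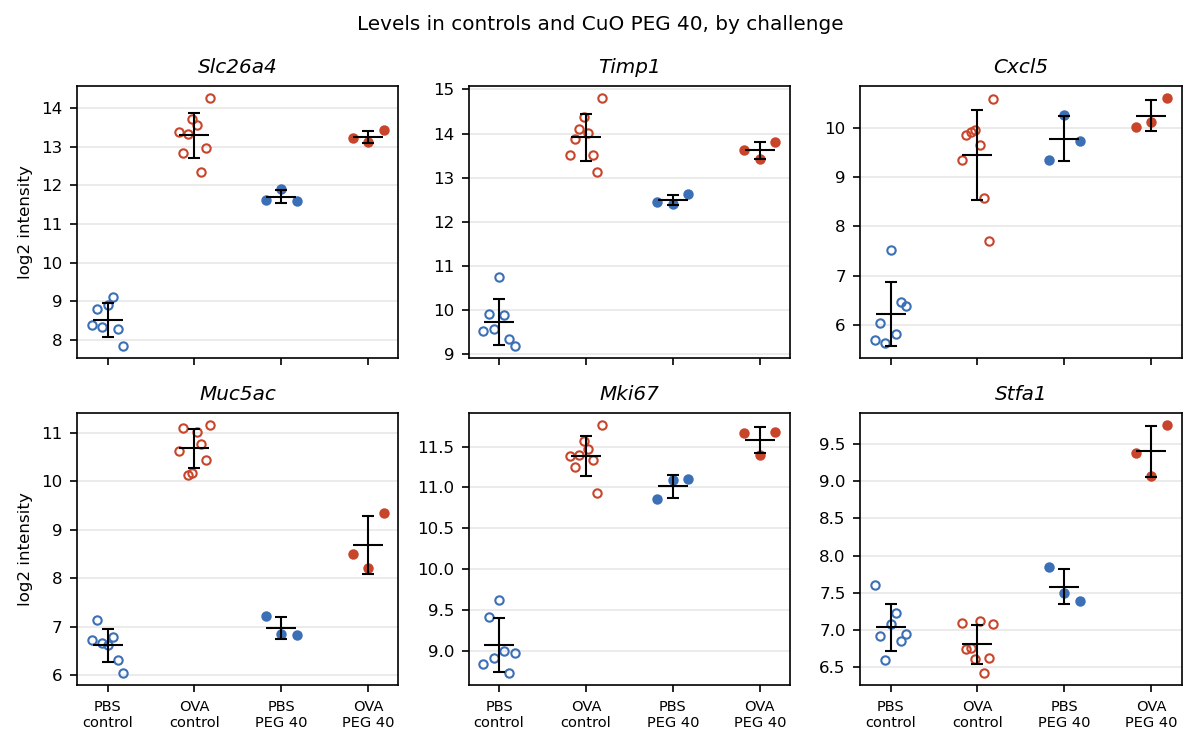
Log2 intensity, with dye, slide and array position removed, of 6 genes in PBS controls (7 samples), OVA controls (8), and PBS and OVA samples with CuO PEG 40 (3 each); points are samples, and bars give the mean and SD. For Slc26a4, Timp1 and Mki67 the PBS samples with CuO PEG 40 lie above all PBS controls, and for Muc5ac the OVA samples lie below all OVA controls.

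Among the 21 genes with a higher effect, 12 had all OVA samples with CuO PEG 40 above all OVA controls. This count too follows in part from the selection, and the share over all genes was not counted. Several belonged to the stefin A family of cysteine protease inhibitors, which neutrophils express. Of 13 measured genes with symbols that start with Stfa, Csta or Cstdc, 6 rose after OVA with CuO PEG 40 and none fell. Their values ran from -0.48 (Cstdc2, under the fold threshold) to 1.94 (Cstdc5). They were taken by symbol alone, so a gene such as Cstad (0.17) need not belong to the family. Stfa1 was at 7.85, 7.50 and 7.40 in PBS and at 9.37, 9.07 and 9.75 in OVA samples, and rose by 1.82 ± 0.40 (adjusted p = 0.00217). Its OVA effect in controls was -0.23, a difference of 2.04 ± 0.48 (adjusted p = 0.012). Cstdc5 (2.24) and Stfa2 (1.95) differed likewise, as did Stfa2l1 (1.64) and Stfa3 (1.42), which were picked out after their values had been seen. These paralogs are nearly identical in sequence, so their probes may read one another. Cyp26b1, which degrades retinoic acid, was at 12.07, 12.61 and 10.99 in OVA samples against 10.53 to 10.87 in PBS samples, a difference from controls of 2.75 (adjusted p = 0.041), although its rise of 1.20 was not called by itself (adjusted p = 0.278). Red cell genes differed in the other direction, Hbb-bt by -1.53 (adjusted p = 0.00793) and Hbb-b2 by -1.29.

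The differences from controls depend on how arrays are modelled. With a separate term for every array, or with the samples confined to the slides that hold CuO PEG, none of the 22911 genes passed, with 1118 and 1965 at an unadjusted p below 0.05. The directions were largely kept, in 226 of the 227 lower and all 21 higher genes with array terms and in all 248 on those slides, with medians of -0.74 and -0.82 against -0.97 for the lower ones. Slc26a4 differed by -2.31 and -2.73 in these fits, and Mki67 by -1.34 and -1.56. Muc5ac differed by -2.36 on those slides but by -0.24 with array terms. Chil4 (-1.70, adjusted p = 0.0387) was the gene whose direction changed, to 0.10.

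**Figure D5:**
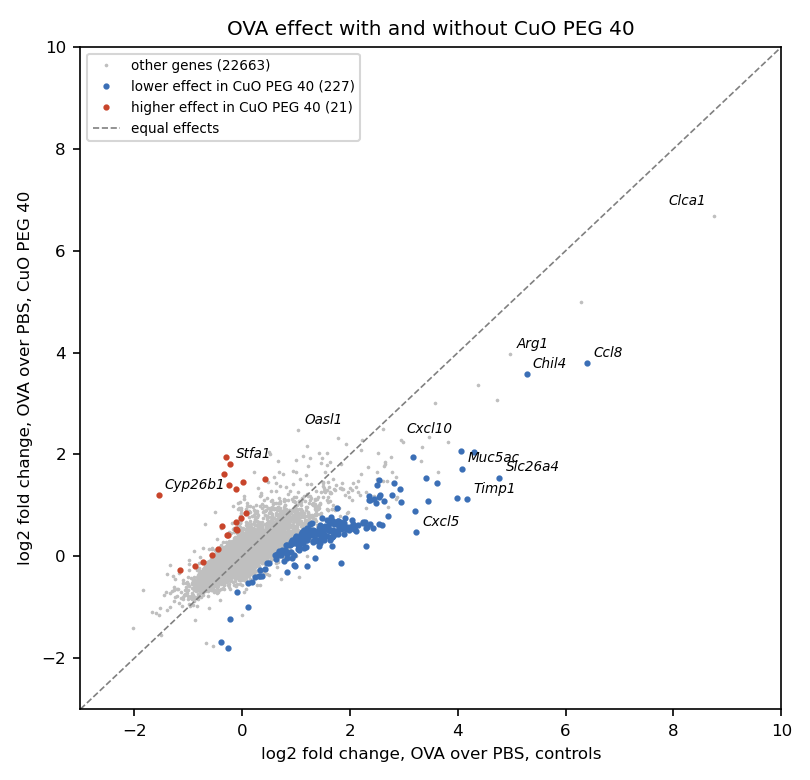
Log2 fold change of OVA over PBS challenge in controls (x axis) and with CuO PEG 40 (y axis) for every gene; coloured points are the 227 genes with a lower and the 21 with a higher effect with CuO PEG 40, and the dashed line marks equal effects. Slc26a4 and Timp1 lie far below the line, and Stfa1 and Cyp26b1 above it.

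The OVA effect was set against that of the 3 related materials at the same dose of 40, each 3 OVA and 3 PBS samples. These are the uncoated CuO core and its forms with carboxyl (CuO COOH) and amine (CuO NH3) surface groups. As doses were set by the mass of the whole material, the copper given differed between them. OVA changed 97 genes with CuO (0.423%), 442 with CuO COOH (1.93%) and 272 with CuO NH3 (1.19%), and with CuO PEG 1012 at the dose of 2.5 (4.42%) and 2413 at 10 (10.5%), where doses were not compared by a test. At 40, the tests of the differences passed for few genes. Against CuO 2 genes differed (0.00873%), against CuO COOH 1 (0.00436%) and against CuO NH3 none, with 2057, 1265 and 1356 at an unadjusted p below 0.05. The median standard error of these differences over all genes was 0.17, 0.16 and 0.17, so small ones would be missed. Large ones could be missed too, in genes with a larger standard error. Against CuO, Hbb-bt differed by -2.00 (adjusted p = 0.118) and Ccl24 by 1.58 (adjusted p = 0.414), and neither passed.

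Csf2 differed from both CuO and CuO COOH. It fell with CuO PEG and had an OVA effect of 0.31 with CuO, 0.27 with CuO COOH and 0.15 with CuO NH3. The differences were -1.31 (95% interval -1.79 to -0.83, adjusted p = 0.0151) from CuO, -1.27 (-1.73 to -0.81, adjusted p = 0.0232) from CuO COOH and -1.15 (-1.63 to -0.67, adjusted p = 0.214) from CuO NH3. Kif18b, a kinesin of the mitotic spindle, rose by 0.59 with CuO PEG and had an effect of -0.38 with CuO, a difference of 0.97 (0.61 to 1.33, adjusted p = 0.0151). Without OVA replicate 2, 11 genes differed across the 3 tests. Leaving out OVA replicate 1 or 3, or PBS replicate 2 or 3, left none, and Csf2 and Kif18b were then not called.

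For the leading type 2 genes no difference between the materials passed, with wide intervals. The OVA effect on Clca1 differed from that with CuO by 0.04 (-2.96 to 3.04), from CuO COOH by 1.74 (-1.15 to 4.62) and from CuO NH3 by 1.18 (-1.78 to 4.14). For Ccl24 the differences were 1.58 (0.41 to 2.75), 0.59 (-0.54 to 1.71) and -0.37 (-1.52 to 0.79). For Slc26a4, the OVA effect of which was smaller than in controls, they were 0.81 (-0.36 to 1.99), 0.43 (-0.70 to 1.56) and 1.03 (-0.13 to 2.19). Hbb-bt differed by -2.00 (-2.85 to -1.14, adjusted p = 0.118) from CuO, -1.73 (-2.56 to -0.91) from CuO COOH and -1.58 (-2.42 to -0.73) from CuO NH3, and these intervals exclude 0 before adjustment over all genes.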

How the data were processed

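Lung RNA of 89 samples in 26 groups had been hybridised to 46 two-colour Agilent mouse arrays on 6 slides. Per the labels and file headers, the authors read spot intensities with the Feature Extraction software, and the deposited files give median foreground and background intensity per spot. The deposited value table holds log2 intensity values that the authors quantile-normalized, and it matched the foreground without background subtraction. Foreground was taken to log2, quantile-normalized over all samples and averaged over spots, then over the probes of a gene (22911 genes; 23611 of 56605 probes have no gene name and were not used).

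limma (version 3.58.1, R 4.3.3) was fitted to all samples with group, dye, slide and array position. The 6 samples lay on 6 arrays of slides 4 and 5, both of which hold both groups, with 2 Cy3 and 1 Cy5 sample per group. Within slide 4, slide 5, Cy3 and Cy5 alone, 552, 553, 551 and 553 of the 553 genes higher after OVA and all 115 lower ones had the same direction. These genes were called from the same 6 samples, so this agreement follows largely from the selection. It is no separate test of slide or dye. Levels per sample have dye, slide and position removed. On simulated data with 200 genes changed by 1.5 on the log2 scale, 199 were recovered with 5 false calls among 22911 genes. The simulated noise was independent and drawn from the fitted model, with an equal step in every OVA sample. The simulation had no sample that stood apart like OVA replicate 2, so it checks the computation and not the reliability of the calls. The number of arrays limits the precision.

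Named were the 12 largest rises and 8 largest falls whose groups did not overlap, the first 2 genes and up to 4 changed genes of each list, and the 4 largest differences between OVA effects in each direction. Other genes were named after their values had been seen, and some genes that the rule names are not reported here. Members and lists were chosen with earlier results of these data known. List genes with no measured probe were Fer1l6, Tpsab1, Ly6g, Cxcl11, Mx1, Rtkn2 and Ahsp; Ear11 is named Rnase2a and Dnai1 Dnaic1 in the files. A gene not well above background in all samples of a group was given as a bound. Promoter windows are from RefSeq, build GRCm38.p6, and the table held one for 18077 of 22911 genes. No column held the authors' own test results.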

Additional observations from a re-analysis of the deposited data

Results flagged for a closer look

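The OVA effect with CuO PEG 40 differed from that in controls without material in 248 genes by the test of the difference itself. The largest higher effects were Cyp26b1 (2.75 on the log2 scale), Cstdc5 (2.24), Stfa1 (2.04) and Stfa2 (1.95), and the largest lower effects were Slc26a4 (-3.22), Timp1 (-3.05), Fxyd4 (-2.84) and Cxcl5 (-2.75). Against CuO 40 the test of the difference passed for Kif18b (0.97) and Csf2 (-1.31), and against CuO COOH 40 for Csf2 (-1.27). For the 8 genes named against controls, no sample was far enough from the rest of the OVA or PBS controls to be singled out (16 sets of values), and groups of 3 samples were not tested for this.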

How the results depend on the processing

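The OVA effect in CuO PEG 40 gave 668 genes, and the difference from controls 248. With a separate term for every array (17 residual degrees of freedom against 50) these became 213 and 0, and the differences from the 3 materials, 3 in all, became 0. ComBat before the fit gave 1368, 726 and 4877. The later fit did not count the array means that ComBat had removed, so its p-values are likely too small and its counts too high. For the OVA effect its median standard error was 0.065 against 0.116 in the main fit. An unadjusted limma p below 0.05 was reached there by 13362 of 22851 genes. The slides with CuO PEG alone gave 636 and 0, and the 6 samples alone 608. The number of differences from materials came to 23 when arrays were a random block, 27 without array position and 0 with loess. With the replicate block the counts were 702, 185 and 7; same-numbered samples of the groups had correlations of 0.08, 0.15 and 0.27, and not every sample correlated best with its own number. The other alternatives, normexp, omission of dim probes and the deposited table, kept each count within 1.5 times. Leaving out 1 of the 6 samples gave 384 to 1042 genes for the OVA effect, 117 to 242 for the difference from controls and 0 to 11 for those from the materials. Of the 106 OVA effects and 11 differences named by the rule, none that passed in the main fit or in an alternative had opposite signs in them. Signs were not compared where a gene passed in neither fit. With array terms 41 of the 67 such OVA effects that had passed, and 11 of 11 differences, no longer passed. Of the 20 mitotic genes 13 rose when arrays were a random block or array position was left out, 12 with the replicate block and 17 with ComBat, and of the 12 goblet cell genes 9, 9 and 10 in the same order. Differences from CuO and CuO COOH could not be fitted on the CuO PEG slides. Signal over background limits Il5, Il13 and other dim genes.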
